A study of Mus musculus with 6 samples.

Results

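The expression of 9 genes that bring glucose into the hepatocyte and set the pace of glycolysis was examined in mouse liver RNA-sequencing data. The genes were taken by symbol from a list of names, which no rule on measured values had chosen, although the list was drawn up with earlier results of these data known. All 9 of the 9 were found among the 23282 genes of the count tables. They were *Slc2a2*, *Gckr*, *Gpi1*, *Pfkl*, *Pfkfb1*, *Pfkfb3*, *Pklr*, *Ldha* and *Pdk1*, and all 9 passed the filter on low counts that left 14076 genes for testing. The libraries came from 3 *Alb-Cre;Tcf7l2 f/f* livers (KO), in which Cre under the albumin promoter recombines a floxed exon of *Tcf7l2* in hepatocytes, and from 3 *Tcf7l2 f/f* livers (wild type, WT), which carry the floxed alleles without Cre. By the labels, all 6 mice had the C57BL/6 background (C57BL/6N in the methods of the study), were 12 weeks old, and had normal chow for 24 h after a fast of 24 h. The labels number the livers 7-2, 7-3 and 8-3 in the KO group and 7-2, 8-1 and 8-3 in the WT group. What the leading 7 or 8 stands for is not given in the sources used here, so values are also shown within each leading number.

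Glucose crosses the hepatocyte membrane through the facilitative transporter GLUT2, encoded by *Slc2a2*, which works in both directions. Glycolysis then runs from glucose 6-phosphate to pyruvate, and its rate in liver is set at the phosphorylation of glucose, at phosphofructokinase and at pyruvate kinase. After a carbohydrate meal the transcription factor ChREBP, with its partner MLX, binds carbohydrate response elements near genes such as *Pklr* and raises their transcription, while pyruvate dehydrogenase kinases and lactate dehydrogenase decide whether pyruvate enters mitochondria or leaves as lactate.

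The 6 libraries held between 60619938 and 133384586 counts, and each of the 9 genes had at least 1140 counts in every library, up to 28054. *Tcf7l2* itself stood at 3.31, 2.74 and 3.33 CPM (counts scaled to a common library size) in KO livers and at 4.87, 6.13 and 6.85 CPM in WT livers, which is -0.93 on the log2 scale (SE 0.19), with an adjusted *p* of 0.0856 by edgeR and 0.00411 by DESeq2. Each KO value was below each WT value, and the mRNA remained detectable in KO livers, where the counts also take in other cell types and the exons outside the floxed one. The 20 major urinary protein (*Mup*) genes took 18.5%, 26.4% and 28.7% of counts in KO libraries, against 31.7%, 54.3% and 39.4% in WT libraries, which is why all CPM values here use library sizes scaled by TMM, a method that is insensitive to a few abundant genes. The summed level of 8 hepatocyte markers overlapped between groups, at 55820 to 79250 CPM in KO livers and 62380 to 69060 CPM in WT livers. In bulk tissue, fewer cells of a type and less RNA per cell cannot be told apart.

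Promoters of *Pklr*, *Slc2a2*, *Pdk1* and *Ldha*, whose levels carry most of the description, were searched for the elements that ChREBP and TCF7L2 are known to bind. Each sequence is the 250 bases before an annotated start site in RefSeq, build GRCm38.p6, written 5′ to 3′ on the strand of the gene. Capitals mark matches to the palindrome CACGTG, to a pair of E-boxes set 5 bases apart as in a carbohydrate response element (each being that palindrome, or CACGGG on either strand), and to the TCF/LEF core, spelled CTTTGAT or, in its other common form, CTTTGAA. All were searched on both strands.
Pklr, chr3:89136373-89136622, plus strand: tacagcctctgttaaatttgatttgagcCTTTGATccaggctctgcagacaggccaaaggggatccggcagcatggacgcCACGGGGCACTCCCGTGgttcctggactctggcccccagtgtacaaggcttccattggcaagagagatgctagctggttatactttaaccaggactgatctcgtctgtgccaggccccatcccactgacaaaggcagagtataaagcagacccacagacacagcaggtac
Slc2a2, chr3:28697653-28697902, plus strand: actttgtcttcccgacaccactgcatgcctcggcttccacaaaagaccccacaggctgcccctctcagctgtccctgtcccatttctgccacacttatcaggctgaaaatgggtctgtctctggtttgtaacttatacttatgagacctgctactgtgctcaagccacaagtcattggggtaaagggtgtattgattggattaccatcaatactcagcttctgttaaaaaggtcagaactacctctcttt
Pdk1, chr2:71872974-71873223, plus strand: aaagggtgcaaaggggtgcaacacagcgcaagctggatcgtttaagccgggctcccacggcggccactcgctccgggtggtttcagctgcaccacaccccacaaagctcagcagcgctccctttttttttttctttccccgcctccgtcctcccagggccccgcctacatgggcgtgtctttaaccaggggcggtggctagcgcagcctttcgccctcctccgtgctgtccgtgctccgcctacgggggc
Ldha, chr7:46845554-46845803, plus strand: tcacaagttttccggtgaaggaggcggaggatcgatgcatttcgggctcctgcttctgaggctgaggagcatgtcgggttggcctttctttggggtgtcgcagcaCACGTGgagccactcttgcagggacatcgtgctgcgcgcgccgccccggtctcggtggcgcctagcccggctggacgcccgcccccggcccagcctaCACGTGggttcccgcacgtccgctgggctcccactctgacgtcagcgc

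*Pklr*, *Pdk1* and *Ldha* have 2 annotated start sites each, and the downstream one of *Pklr* and the upstream ones of *Pdk1* and *Ldha* are shown. The *Pklr* window carried 1 such pair of E-boxes, read as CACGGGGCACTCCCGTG and beginning 170 bases before the start site, and 1 TCF/LEF core, CTTTGAT, beginning 222 bases before it, while its other window held no match. The pair layout was found in 5 of 32851 windows of 300 bases (250 before and 50 after a start site), which is 0.0152% of them, and *Pklr* was the only one of the 9 genes with a match. Only these exact spellings and this spacing were searched. The share therefore counts this layout alone and does not measure how common carbohydrate response elements of other spellings are. The TCF/LEF core in either spelling was found in 8.65% of all windows, and in 3 of the 16 windows of the 9 genes, belonging to *Pklr*, *Pdk1* and *Pfkfb1*. The palindrome, the E-box core that HIF, MYC and USF factors can also bind, occurred in 7.15% of all windows and in 2 of the 16. The *Ldha* window printed above had 2 such palindromes, beginning 145 and 48 bases before the start site, and a *Pfkfb3* window had 1. The printed windows of *Slc2a2* and *Pdk1* held none of these letters. A match describes the sequence only, and binding was not measured in these libraries.

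Tested with edgeR (quasi-likelihood) and adjusted over all genes by Benjamini-Hochberg, 0 of the 9 genes passed the threshold of 0.05 between KO and WT livers. The same test called 63 of 14076 genes, or 0.448%, with 10 higher and 53 lower in KO livers. DESeq2 called 0 of the 9 as well, with 2.87% of 15037 genes called, and its lowest adjusted *p* among the 9 was 0.062, for *Pdk1*. At an unadjusted edgeR *p* under 0.05 there were 4 of the 9 genes, 2 higher in KO livers (*Pklr* and *Pdk1*) and 2 lower (*Ldha* and *Pfkfb1*), where 13.5% of all genes reached that level. The values of the groups did not overlap for 2 of the 9, *Pdk1* and *Ldha*, beside 19.3% of all genes. The median log2 fold change of the 9 genes was -0.04, against -0.02 over all genes. The differences therefore ran both ways within the pathway, and none of them passed the test across all genes.

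**Figure D1:**
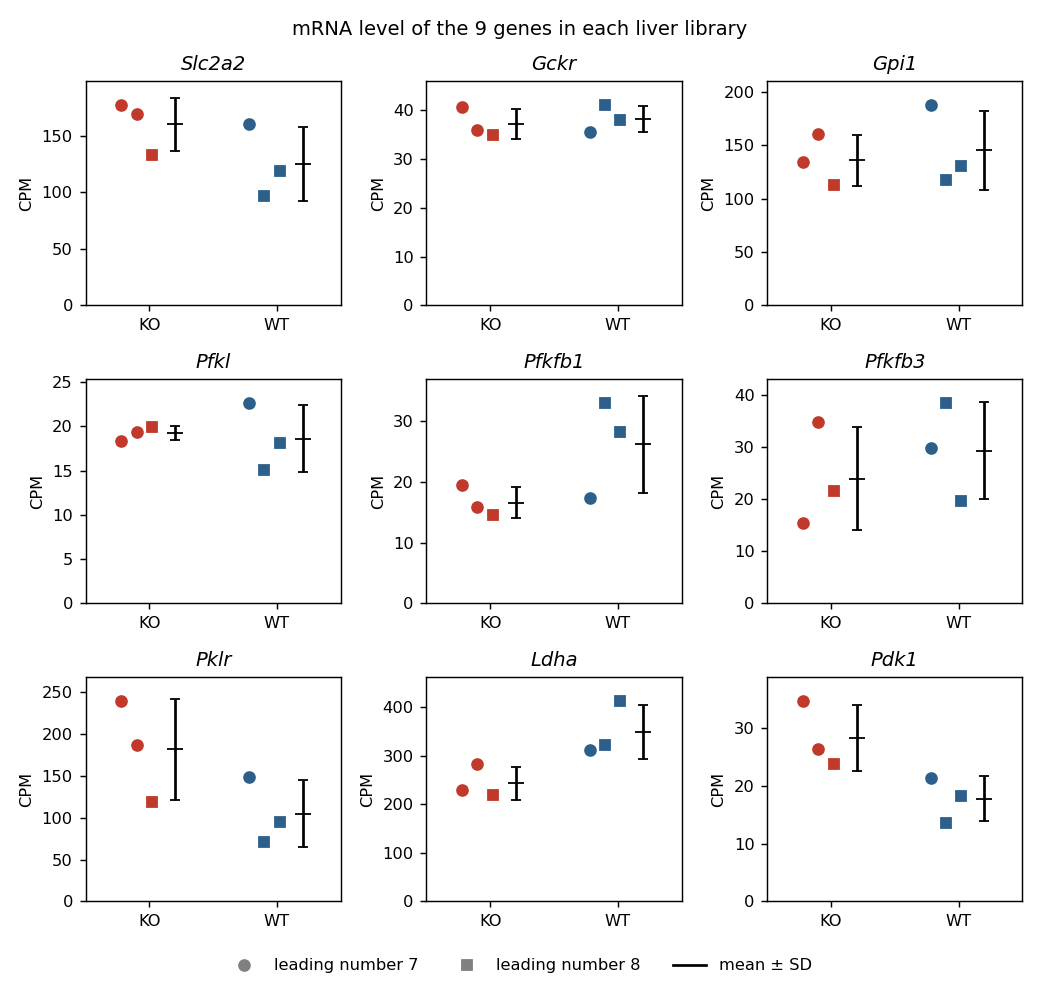
Level of each of the 9 genes in each liver library, in CPM with TMM-scaled library sizes. Circles are libraries with leading number 7 and squares those with leading number 8, KO on the left in red and WT on the right in blue, with the mean ± SD of each group beside them. Only *Pdk1* and *Ldha* have groups that do not overlap.

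*Slc2a2* (NM_031197, chr3:28697903-28728361 in mm10) had 177.0, 169.4 and 133.2 CPM in KO livers 7-2, 7-3 and 8-3, against 160.7, 96.3 and 118.8 CPM in WT livers 7-2, 8-1 and 8-3. The WT 7-2 liver lay inside the KO range, and the other WT livers lay below it. The log2 fold change was 0.35 (SE 0.21, 95% interval -0.13 to 0.83; adjusted *p* = 0.501, edgeR). Within leading number 7 the log2 ratio of KO over WT was 0.11 and within leading number 8 it was 0.31, and in both the KO livers stood above the WT livers.

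*Gckr* (NM_144909, chr5:31297266-31327302) encodes the regulatory protein that holds the liver's glucose-phosphorylating enzyme inactive in the nucleus between meals and is released from it by fructose 1-phosphate. It had 40.5, 35.9 and 34.9 CPM in KO livers, against 35.5, 41.0 and 37.8 CPM in WT livers. It was the member with the narrowest interval, with -0.04 on the log2 scale (SE 0.14, 95% interval -0.35 to 0.28; adjusted *p* = 0.935, edgeR). A difference of the size seen for *Pklr* lay outside that interval.

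*Gpi1* (NM_008155, chr7:34201327-34230336), the isomerase that turns glucose 6-phosphate into fructose 6-phosphate, had 134.7, 160.8 and 112.5 CPM in KO livers, against 187.8, 117.6 and 130.8 CPM in WT livers. The groups overlapped, with a log2 fold change of -0.10 (95% interval -0.58 to 0.39; adjusted *p* = 0.882, edgeR). The highest value of each group was found in a liver with leading number 7. Within each leading number the KO livers were the lower ones, with log2 ratios of -0.35 for 7 and -0.14 for 8.

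*Pfkl* (NM_008826, chr10:77986947-78009807) encodes the liver subunit of phosphofructokinase, the enzyme that commits fructose 6-phosphate to glycolysis. Its level was 18.4, 19.3 and 20.0 CPM in KO livers, against 22.6, 15.1 and 18.1 CPM in WT livers, so the KO values lay inside the WT range. The log2 fold change was 0.05 (95% interval -0.32 to 0.42; adjusted *p* = 0.935, edgeR), with ratios of opposite sign within the leading numbers (-0.26 for 7 and 0.26 for 8).

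*Pfkfb1* (NM_008824, chrX:150587445-150643878) and *Pfkfb3* (NM_001177755, chr2:11471430-11554071) encode bifunctional enzymes that make and break down fructose 2,6-bisphosphate, the strongest activator of phosphofructokinase. PFKFB1 is the form typical of liver, and PFKFB3 is an inducible form with high kinase activity. *Pfkfb1* had 19.4, 15.8 and 14.5 CPM in KO livers, against 17.4, 32.9 and 28.2 CPM in WT livers. The difference lay with the WT livers 8-1 and 8-3, and WT 7-2 stood among the KO livers. Over all libraries the log2 fold change was -0.66 (SE 0.23, 95% interval -1.17 to -0.15; unadjusted *p* = 0.0165, adjusted *p* = 0.258, edgeR). It was 0.02 within leading number 7 and -1.08 within leading number 8. *Pfkfb3* had 15.5, 34.8 and 21.6 CPM in KO livers, against 29.8, 38.5 and 19.8 CPM in WT livers, a spread of more than the difference between groups (log2 fold change -0.29, 95% interval -0.98 to 0.39; adjusted *p* = 0.698, edgeR). The first part of *Pfkfb1* overlaps *Apex2* in the RefSeq annotation, and whether the counting used strand is not given in the sources used here.

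*Pklr* (NM_013631, chr3:89136122-89146815) encodes the pyruvate kinase of liver and red cells, which makes pyruvate and ATP in the last step of glycolysis. It had 239.6, 187.5 and 118.8 CPM in KO livers, against 149.0, 70.5 and 95.2 CPM in WT livers. It showed the largest log2 fold change of the 9 genes, 0.79 (SE 0.31, 95% interval 0.10 to 1.49), or 1.73-fold, with an unadjusted *p* of 0.0293 and an adjusted *p* of 0.312 (edgeR). The groups overlapped because KO 8-3 stood below WT 7-2. Within each leading number every KO liver was above every WT liver, and the log2 ratio was 0.52 for both 7 and 8. Leaving out each library in turn gave log2 fold changes between 0.55 and 1.14.

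*Ldha* (NM_010699, chr7:46842274-46855627), the lactate dehydrogenase subunit that favours the turning of pyruvate into lactate, had 229.3, 282.2 and 218.9 CPM in KO livers, against 311.3, 321.1 and 412.2 CPM in WT livers. All KO values were below all WT values. The log2 fold change was -0.52 (SE 0.19, 95% interval -0.94 to -0.09; unadjusted *p* = 0.0219, adjusted *p* = 0.281, edgeR), or 1.43-fold higher in WT. The log2 ratio was -0.28 within leading number 7 and -0.74 within leading number 8. Reads that align in several places were counted, and *Ldha* has processed pseudogenes of close sequence, so a part of its counts may be shared with them.

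*Pdk1* (NM_172665, chr2:71873215-71903858) encodes a pyruvate dehydrogenase kinase, which phosphorylates and switches off the enzyme complex that feeds pyruvate into the citric acid cycle. It had 34.7, 26.4 and 23.9 CPM in KO livers, against 21.4, 13.6 and 18.3 CPM in WT livers, with no overlap. The log2 fold change was 0.67 (SE 0.20, 95% interval 0.22 to 1.13), or 1.59-fold, the smallest unadjusted *p* of the 9 genes (0.00831) with an adjusted *p* of 0.204 (edgeR). The ratios within the leading numbers were alike, 0.51 for 7 and 0.58 for 8. The order of the 6 libraries by *Pdk1* level was the reverse of their order by the share of counts taken by the *Mup* genes. With *Mup* genes left out of the library sizes the log2 fold change was 0.68, a setting that could change little because TMM is insensitive to a few abundant genes. The part of the *Mup* share in the result was not tested.

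Of the 9 genes, 5 kept KO and WT livers apart in the same direction within both leading numbers, *Pklr*, *Slc2a2* and *Pdk1* with KO above WT and *Ldha* and *Gpi1* with KO below WT. The same held for 35.7% of all genes tested. With 2 KO livers and 1 WT liver in number 7 and the reverse in number 8, this separation is a description of few values. The numbers are unevenly spread over the groups, and the ratio of *Pklr* within the numbers was smaller than the ratio over all libraries.

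**Figure D2:**
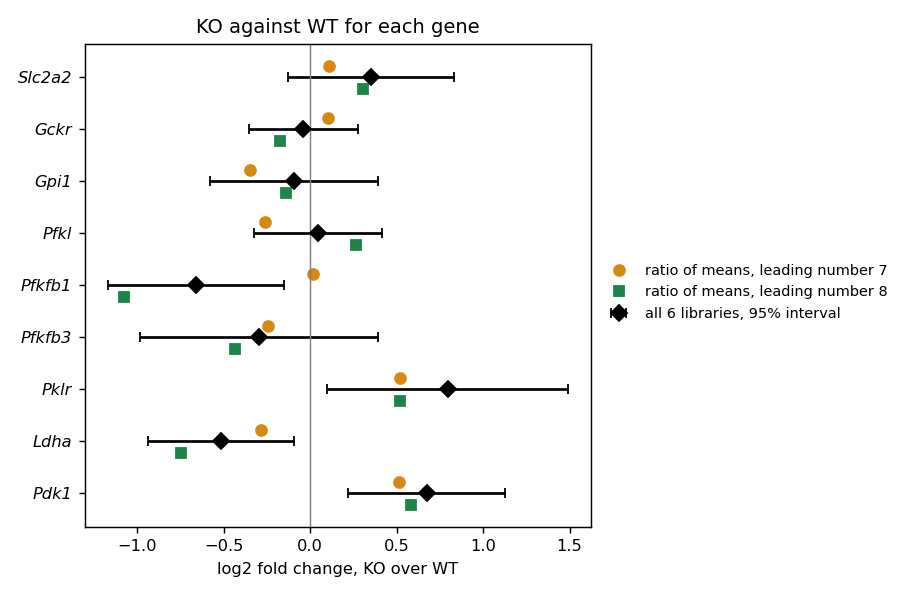
Log2 fold change of KO over WT for each of the 9 genes, with diamonds and 95% intervals from edgeR over all 6 libraries, and circles and squares for the log2 ratio of mean CPM within leading number 7 and 8. The intervals of *Pfkfb1*, *Pklr*, *Ldha* and *Pdk1* leave out 0 before adjustment, and the ratios of *Pfkfb1* lie at 0.02 for number 7 and at -1.08 for number 8.

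The scaling decided the sign of some of these values. With library sizes alone, all genes together had a median log2 fold change of 0.61, and *Pdk1* (1.27, adjusted *p* = 0.0175, edgeR) and *Pklr* (1.36, adjusted *p* = 0.0255) were then called. That is 2 of the 9, where the same setting called 21.5% of all genes. Relative to that median they stood at 0.65 and 0.74, *Slc2a2* at 0.31, *Ldha* at -0.52 and *Pfkfb1* at -0.57, which is close to the values with TMM scaling. The signs of *Ldha*, *Pfkfb1*, *Pfkfb3*, *Gckr* and *Gpi1* in the results above turn with library sizes alone and are therefore directions relative to the bulk of genes.

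The genes differed widely in level, compared as CPM per kilobase of exon (length of the canonical GENCODE transcript). *Ldha* was the most abundant at 153.3 in KO livers and 219.3 in WT livers. *Pklr* followed at 53.1 in KO livers and 30.6 in WT livers, and *Gpi1* at 46.9 in KO livers and 50.1 in WT livers, so that *Pklr* led *Gpi1* in KO means and *Gpi1* led *Pklr* in WT means. Their ranges over the 6 libraries overlapped (20.5 to 69.9 for *Pklr* and 38.8 to 64.7 for *Gpi1*). *Slc2a2* had 28.7 in KO livers and 22.5 in WT livers, and its lowest library, at 17.3, reached into the range of *Gckr*, 15.4 to 18.0. *Pfkfb1* had 8.85 in KO livers and 14.0 in WT livers. The last 3 places went to *Pfkfb3*, *Pfkl* and *Pdk1*, with means over all libraries of 4.73, 4.62 and 4.38 that their ranges did not tell apart. *Pfkl* and *Pfkfb3* thus each had less mRNA per kilobase than *Slc2a2*, *Pklr* or *Ldha* in every library. *Pfkfb1* did not keep apart in this way, as it had 17.6 in WT 8-1, where *Slc2a2* had 17.3.

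The library-by-library pattern of *Slc2a2* followed that of *Pklr*. Both were highest in KO 7-2, then in KO 7-3, WT 7-2, KO 8-3 and WT 8-3, and lowest in WT 8-1. Over the 6 libraries their log2 CPM had a Pearson r of 0.98, which placed *Slc2a2* at rank 2 of 10076 genes with a mean log2 CPM above 1 in likeness to *Pklr*. *Pdk1* was at rank 9, with r = 0.955. The genes at ranks 1, 3, 4 and 5 were *Cadps2* (0.99), *Osbpl2* (0.97), *Sash1* (0.97) and *Hoga1* (0.97). *Ldha* and *Pfkfb1* had negative values, with r = -0.55 and r = -0.69. These 6 libraries differ in genotype, leading number and the share of *Mup* counts at once, and a high r over them describes that shared order.

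**Figure D3:**
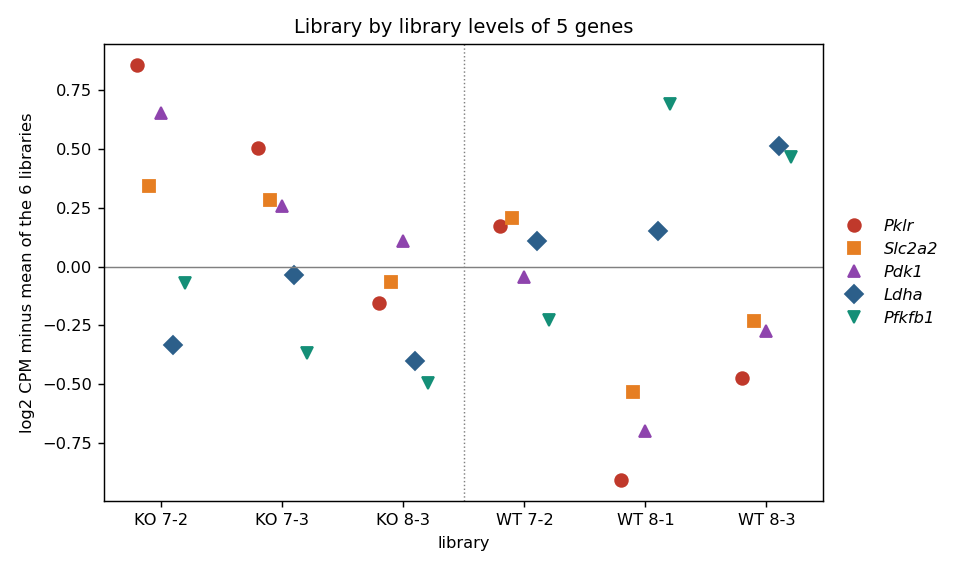
Level of *Pklr*, *Slc2a2*, *Pdk1*, *Ldha* and *Pfkfb1* in each library, as log2 CPM minus the gene's mean over the 6 libraries, with KO libraries left of the dotted line and WT libraries right of it. *Pklr* and *Slc2a2* keep the same order over the libraries, and *Pfkfb1* stands high in WT 8-1 and WT 8-3 alone.

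*Pfkfb1* had its own pattern, high in WT 8-1 and WT 8-3 and low in the other 4 libraries. The 5 genes most like it were *Ppapdc1b* (r = 0.99), *Msmo1* (0.99), *Lrrc42* (0.99), *Cxcl9* (0.99) and *Nucb2* (0.98). *Msmo1*, an enzyme of cholesterol synthesis, had 80.0, 62.7 and 45.7 CPM in KO livers, against 70.2, 166.3 and 147.8 CPM in WT livers. *Cxcl9*, a chemokine induced by interferon gamma, had 8.57, 6.74 and 5.76 CPM in KO livers, against 6.71, 31.1 and 26.2 CPM in WT livers. In both, as in *Pfkfb1*, WT 7-2 was no higher than the highest KO liver. None of the 5 passed the main edgeR test (adjusted *p* from 0.172 to 0.563). Among 17 alternative settings, *Msmo1* and *Cxcl9* were each called in 1, *Nucb2* in 2, and *Ppapdc1b* and *Lrrc42* in 0.

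For 6 of the 9 genes that belong to families of related transporters or isozymes, the share of the gene was measured as its part of the family's summed CPM per kilobase. *Pklr* made up 95.6 ± 1.98% of pyruvate kinase mRNA in KO livers and 90.95 ± 3.37% in WT livers (SD, n = 3 each; exact two-sided permutation *p* = 0.2), the rest being *Pkm*. *Ldha* made up 99.7 ± 0.11% of *Ldha* plus *Ldhb* in KO livers and 99.8 ± 0.134% in WT livers (exact *p* = 0.8). *Pfkl* took 63.5 ± 2.28% of the phosphofructokinase family in KO livers and 66.8 ± 3.65% in WT livers (exact *p* = 0.2), and *Slc2a2* took 81.7 ± 2.23% of 5 transporters in KO livers and 78.0 ± 2.4% in WT livers (exact *p* = 0.2). The 5 were *Slc2a1*, *Slc2a2*, *Slc2a8*, *Slc2a9* and *Slc2a10*, without *Slc2a3* and *Slc2a4*. *Slc2a9* was the largest of the others, at 4.35 CPM per kilobase in KO livers and 3.63 in WT livers. The liver forms of pyruvate kinase and of the transporter thus held most of their families, as counted here, in both genotypes.

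*Pfkfb1* took 53.1 ± 11.3% of its family in KO livers and 62.5 ± 7.77% in WT livers (SD, n = 3 each; exact two-sided permutation *p* = 0.3), where *Pfkfb3*, *Pfkfb2* and *Pfkfb4* made up the rest. The share of *Pdk1* among *Pdk1* to *Pdk4* was 21.8%, 19.6% and 18.4% in KO livers, against 14.7%, 13.6% and 13.5% in WT livers. The groups did not overlap, and the difference of 6.01 percentage points had an exact two-sided permutation *p* of 0.1 (n = 3 each), the smallest that 3 against 3 livers allow. Adjusted over the 6 families it was 0.3. *Pdk2*, the main kinase of the family in these livers, had 48.4 ± 4.38 CPM in KO livers and 46.0 ± 8.05 CPM in WT livers (SD, n = 3 each), with a log2 fold change of 0.08 (adjusted *p* = 0.881, edgeR). *Pdk4*, the fasting-induced kinase, had 1.70, 1.42 and 1.34 CPM in KO livers, against 3.54, 1.43 and 3.37 CPM in WT livers (log2 fold change -0.90; adjusted *p* = 0.285, edgeR), a level far below *Pdk2* after 24 h of refeeding. *Pdk3* was nearly absent, at most 0.33 CPM in any library.

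**Figure D4:**
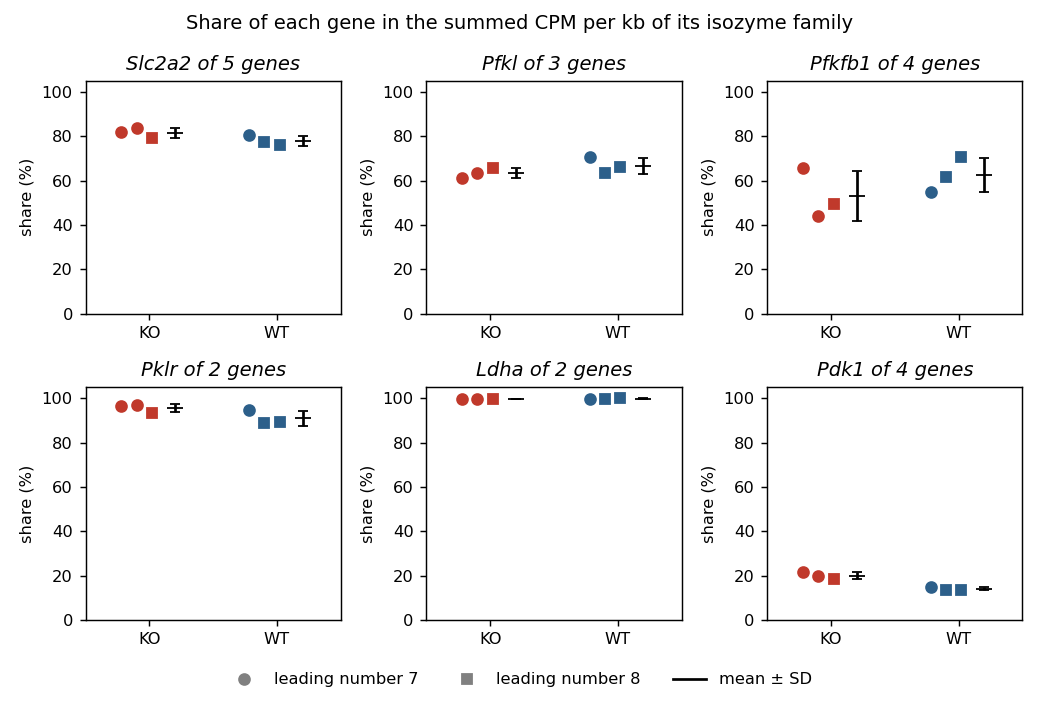
Share of each of 6 genes in the summed CPM per kilobase of its transporter or isozyme family, in percent, for each KO library (left, red) and WT library (right, blue), with the mean ± SD. Only in the pyruvate dehydrogenase kinase family do the groups stay apart, at 18.4% to 21.8% in KO livers and 13.5% to 14.7% in WT livers for *Pdk1*.

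The remaining genes of the pathway showed the same mixture. Of 58 genes listed for glucose entry, the phosphofructokinase step, the other glycolytic enzymes and the fate of pyruvate, 53 were tested and 44 were not among the 9. Of these 44, 0 passed edgeR's adjusted threshold. Before adjustment, 5 were higher and 4 lower in KO livers with an edgeR *p* under 0.05, where 13.5% of all genes reached that level in either direction. The median log2 fold change was -0.02, as over all genes. DESeq2 called 1 of them, *Slc2a4*, where it called 2.87% of all genes. *Slc2a4*, the insulin-responsive transporter of muscle and fat, was barely expressed (0.65, 0.79 and 0.31 CPM in KO livers, against 0.18, 0.14 and 0.06 CPM in WT livers).

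Among genes of glucose entry and the phosphofructokinase step, *Pfkm*, the muscle-type subunit, had 9.68, 9.25 and 8.27 CPM in KO livers, against 7.64, 6.94 and 6.69 CPM in WT livers (log2 fold change 0.35; adjusted *p* = 0.341, edgeR). *Tigar*, a phosphatase that lowers fructose 2,6-bisphosphate, also had groups that did not overlap (log2 fold change 0.29; adjusted *p* = 0.527). *Slc2a1*, the widely expressed transporter GLUT1, stood at -0.50 on the log2 scale (adjusted *p* = 0.388). Among the 13 tested genes of the list of other glycolytic enzymes that were not among the 9, 9 had negative and 4 positive values, with a median log2 fold change of -0.29, while the whole list of 15, which also holds *Gpi1* and *Pklr*, had a median of -0.11. KO values lay below all WT values for 3 of the 13, beside 19.3% of all genes whose groups did not overlap in either direction. *Bpgm*, which makes 2,3-bisphosphoglycerate, had 5.87, 6.28 and 6.15 CPM in KO livers, against 7.90, 8.10 and 8.52 CPM in WT livers (log2 fold change -0.42; adjusted *p* = 0.247). *Aldoc* (-0.57; adjusted *p* = 0.28) and *Pgm1* (-0.49; adjusted *p* = 0.373) also had KO values below all WT values, while *Aldoa* overlapped (-0.37; adjusted *p* = 0.452). *Bpgm* is best known from red cells, whose 7 listed markers, 5 of them tested, summed to 246.9 to 280.4 CPM in KO livers and 248.7 to 424.2 CPM in WT livers, and the part of red cell RNA in its value was not tested.

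On the fate of pyruvate, 18 tested genes were not among the 9, of which 10 had positive and 8 negative values. KO livers stood above WT livers without overlap for 5 of the 18 and below for 1, where 19.3% of all genes had no overlap. *Mpc1*, a subunit of the mitochondrial pyruvate carrier, had 92.4, 109.9 and 96.7 CPM in KO livers, against 84.3, 72.8 and 72.2 CPM in WT livers (log2 fold change 0.38; adjusted *p* = 0.322, edgeR). *Dlat*, the acetyltransferase core of the pyruvate dehydrogenase complex, had 26.2, 21.2 and 21.3 CPM in KO livers, against 17.1, 16.96 and 19.1 CPM in WT livers (log2 fold change 0.37; adjusted *p* = 0.311). *Pdpr*, a regulator of the phosphatase that reactivates the complex, stood at 0.73 on the log2 scale (adjusted *p* = 0.287). The kinase *Pdk1* and *Dlat*, a part of the complex that the kinase switches off, thus had higher values in the same KO livers. None of the differences given here passed the test.

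Known targets of the factors that drive glycolytic genes were set beside the 9 genes. Of 17 ChREBP targets outside glycolysis, 12 had positive values, beside 47.9% of all genes tested, with a median log2 fold change of 0.38. Of the 17, 0 passed edgeR's adjusted threshold, while 6 higher and 1 lower had *p* under 0.05 before adjustment, as did 13.5% of all genes. DESeq2 called 4 of the 17, *Elovl6*, *Thrsp*, *Fasn* and *Acaca*, against 2.87% of all genes. The study counts lipogenic genes among targets shared by ChREBP and SREBP1c, a product of *Srebf1*. Shared targets were not set apart in this list. The 5 genes of the list with negative values reached down to -0.615. *Elovl6*, a fatty acid elongase, had 155.3, 127.5 and 89.6 CPM in KO livers, against 68.4, 61.9 and 57.0 CPM in WT livers (log2 fold change 0.99; adjusted *p* = 0.0901, edgeR). As with *Pklr*, the KO 8-3 liver had the lowest value of the KO group. Of 13 tested hypoxia targets outside glycolysis, 6 had positive and 7 negative values, with a median of -0.03, although *Pdk1* and *Ldha* are both known HIF targets and lay on opposite sides. *Mxi1* (log2 fold change 0.57; adjusted *p* = 0.158) and *P4ha1* (0.90; adjusted *p* = 0.189) were those with the smallest *p* among them, and DESeq2 called *P4ha1*. *Ankrd37* came next by *p* and was lower (-1.31; adjusted *p* = 0.264, edgeR). Before adjustment, 3 of the 13 were higher and 2 lower with an edgeR *p* under 0.05, beside 13.5% of all genes in either direction. Of 19 transcription factors of glycolytic genes, 12 had positive values, among them *Srebf1* (0.90; adjusted *p* = 0.132, edgeR, and called by DESeq2), *Hif1a* (0.48; adjusted *p* = 0.205) and its partner *Arnt* (0.49; adjusted *p* = 0.253). The other 7 had negative values, with *Usf1* the next by *p* after those 3 (-0.45; adjusted *p* = 0.359, edgeR). These lists were drawn up with results of these data known and are not independent evidence of direction.

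**Figure D5:**
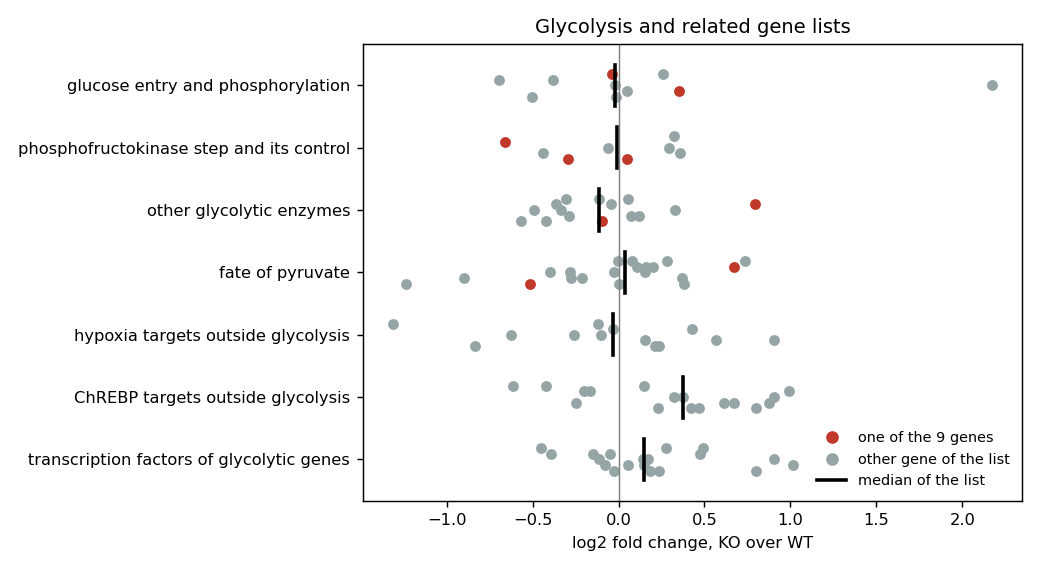
Log2 fold change of KO over WT for every tested gene of 7 lists, one point for each gene, with the 9 genes in red, the other genes in grey and a black bar at the median of each list. The medians of the 4 glycolysis lists lie between -0.11 and 0.04, and that of the ChREBP targets at 0.38.

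Markers of other liver cells were summed in the same libraries, with no test of the sums. All 13 of 13 sinusoidal endothelial markers had positive values (median log2 fold change 0.25), where 47.9% of all genes tested did. The endothelial markers summed to 109.1 to 118.5 CPM in KO livers and 92.5 to 94.9 CPM in WT livers. The 12 stellate cell markers summed to 117.9 to 133.3 CPM in KO livers and 77.6 to 102.5 CPM in WT livers, and the 11 Kupffer cell and macrophage markers to 77.2 to 93.0 CPM in KO livers and 91.5 to 113.3 CPM in WT livers. The endothelial and stellate sums did not overlap between groups, and the Kupffer sums did. Of the 12 stellate markers, 9 had positive and 3 negative values, the lowest at -0.22. Within the stellate sum, *Dcn* alone had 28.9, 36.5 and 28.3 CPM in KO livers, against 17.5, 18.9 and 11.1 CPM in WT livers. Of the 11 Kupffer markers, 1 had a positive and 10 a negative value. None of the markers passed edgeR's adjusted threshold, and DESeq2 called 3 stellate markers, *Dcn* (log2 fold change 0.98 by edgeR; adjusted *p* = 0.0015, DESeq2), *Reln* (0.90; 0.00794) and *Colec11* (0.91; 0.0252). Over all genes DESeq2 called 2.87%. The part of these cells in the values of *Pdk1*, *Ldha* and *Pfkfb3*, which are widely expressed, was not tested. *Pklr*, *Slc2a2* and *Gckr* are known as hepatocyte genes in liver. The median log2 fold change of the 8 hepatocyte markers was 0.0031, with values from -0.15 to 0.31. The part of cell shares in the values of *Pklr*, *Slc2a2* and *Gckr* was not tested either.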

How the data were processed

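Liver RNA was sequenced with a directional library kit. The authors deposited raw counts per gene, made with Bedtools from unique and multiple alignments on mm10, with TopHat named in the submitters' processing notes. For the aligner's version, the annotation and strand, nothing is given in the sources used here. The members and gene lists were chosen with earlier results of these data known. Counts were tested for KO against WT with edgeR 4.0.16 (limma 3.58.1, R 4.3.3), using the quasi-likelihood test, TMM factors, filterByExpr (minimum count 10, minimum total 15) and no covariate. Each library was taken as 1 mouse, and *p* values measure the spread between libraries. The biological coefficient of variation was 23.9%. Likeness used log2(CPM + 0.5). Code was tested on simulated data. Named genes were the members, their isozymes, *Tcf7l2*, up to 4 genes per list by smallest *p*, and the 5 genes most like *Pklr* and *Pfkfb1*. Ratios within leading numbers were chosen after the data were seen. Alternatives were DESeq2 1.42.0, other scalings (including library sizes without *Mup* genes) and filters, limma, each library left out, and blocks on label numbers. Some genes are not reported here.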

Additional observations from a re-analysis of the deposited data

How the results depend on the processing

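Of the 9 genes, 0 were called in 16 of 17 alternatives, and library sizes alone called 2 as higher in KO, *Pklr* and *Pdk1*. *Pklr*, *Slc2a2* and *Pdk1* stayed positive throughout, and *Ldha*, *Pfkfb1* and *Pfkfb3* stayed negative except with library sizes alone, which gave 0.10 for *Ldha*, 0.0395 for *Pfkfb1*, 0.32 for *Pfkfb3*, 0.61 for *Gckr*, 0.47 for *Gpi1*, 0.57 for *Pfkp*, 0.35 for *Pkm*, 0.34 for *Ldhb*, 0.14 for *Slc2a1*, 0.21 for *Pfkfb4*, 0.20 for *Bpgm*, 0.0802 for *Aldoc*, 0.13 for *Pgm1*, 0.20 for *Aldoa* and 0.44 for *Lrrc42*. That shift is the scaling itself, as the median of all genes moved by 0.61. It took the list medians to 0.65 (glucose entry), 0.60 (phosphofructokinase step), 0.47 (other enzymes), 0.65 (fate of pyruvate), 0.59 (hypoxia), 0.96 (ChREBP) and 0.80 (transcription factors). Quantile-normalised values gave 0.0023 for *Gpi1*, 0.0075 for *Pfkp* and 0.10 for the list on pyruvate.

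With each library left out in turn, log2 fold changes lay between 0.55 and 1.14 for *Pklr*, 0.20 and 0.58 for *Slc2a2*, 0.50 and 0.83 for *Pdk1*, -0.64 and -0.38 for *Ldha*, -0.88 and -0.45 for *Pfkfb1* and -0.66 and -0.04 for *Pfkfb3*. Signs turned in *Gpi1* (-0.23 to 0.13), *Pfkl* (-0.0769 to 0.21), *Gckr* (-0.11 to 0.0235), *Pfkp* (-0.16 to 0.16), *Ldhb* (-0.62 to 0.0439) and *Pdk2* (-0.054 to 0.18). Differences in share lay between -0.0819 and 0.0513 percentage points for *Ldha*, 5.10 and 6.78 for *Pdk1*, -15.7 and -4.82 for *Pfkfb1*, -5.00 and -1.37 for *Pfkl*, 3.58 and 6.60 for *Pklr* and 2.70 and 5.05 for *Slc2a2*. List medians lay between -0.12 and 0.0337 (glucose entry), -0.0597 and 0.0921 (phosphofructokinase step), 0.0115 and 0.12 (fate of pyruvate) and 0.0034 and 0.18 (transcription factors).

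Over all genes, calls higher and lower in KO were 190 and 241 with DESeq2, 2932 and 88 with library sizes alone, 3 and 29 with quantile normalisation, 6 and 44 with limma-voom, 23 and 73 without the filter, and 3 to 18 and 21 to 69 with each library left out. The main test did not pair livers by label number, since both groups share only 7-2 and 8-3. Deviations of these from their group means had correlations of 0.04 and -0.02, and so few pairs cannot settle whether the numbers mark related livers. A replicate block on the leading number gave 7 and 33 calls, with *Pklr* at 0.52, *Pdk1* at 0.55, *Pfkl* at -0.0002 and *Pfkp* at 0.029. A replicate block on the full number gave 15 and 33, with *Pklr* at 0.50, *Pdk1* at 0.54, *Gckr* at 0.0373, *Pfkl* at -0.0799 and *Pdk2* at -0.0349. None of the 9 genes was called with either block.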
